A study of Drosophila melanogaster with 58 samples.

Results

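The genes described here encode structural proteins of the insect cuticle in the fruit fly Drosophila melanogaster. They are the genes whose symbol in the array's annotation begins with Cpr and a digit, the CPR family, or with Twdl, the Tweedle family. A probe set, the group of short probes that measures a transcript, was used only where it named 1 gene. Where a gene had several such probe sets, it was represented by the one with the greatest mean. This gave 90 genes, 66 CPR and 24 Tweedle, of 11982 genes with such a probe set, and 20 of them, 16 CPR and 4 Tweedle, had a mean over 5 on the log2 scale in any diet group. The remaining 70 genes stayed under that level in every group. All 90 were matched to the RefSeq gene table, which holds 96 genes of the families. A further 3 members of the families, Cpr57A, Cpr65Ax1 and Cpr65Ax2, lie only on 4 probe sets shared with other genes and were not analysed here.

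Total RNA from heads of Oregon R males, adult and unmated, labelled 10 days old, was measured on 58 Affymetrix arrays, 4 per diet and 2 for moxifloxacin. The flies were kept 30 to a vial at 25 C on their diet for 7 days. Of the 15 diets, 6 combined pentylenetetrazole (PTZ) with levetiracetam, Glucosamine Hydrochloride, mannitol, Olmesartan Medoxonil, Quinapril Hydrochloride or oxaprozin, 7 held levetiracetam, Glucosamine Hydrochloride, mannitol, Olmesartan Medoxonil, Moxifloxacin Hydrochloride, gemfibrozil or Quinapril Hydrochloride alone, 1 held PTZ alone, and 1 was normal food. The flies carried no transgene in the labels. Doses were not known here. PTZ is a convulsant that blocks GABA-gated chloride channels, and levetiracetam is an antiepileptic drug. Glucosamine is an amino sugar, mannitol a sugar alcohol, olmesartan an angiotensin receptor blocker and quinapril an inhibitor of the enzyme that makes angiotensin. Moxifloxacin is an antibiotic, gemfibrozil lowers blood lipids and oxaprozin is an anti-inflammatory drug. The series is titled as a screen for drugs that could be reused in neuropsychiatry.

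The cuticle is a layered extracellular coat of chitin, a polymer of acetylated glucosamine, and of proteins that set its stiffness. CPR proteins carry a chitin-binding Rebers and Riddiford domain, and Tweedle proteins form another family that also shapes the cuticle. Most of these genes are transcribed by epidermis around a moult, before the adult emerges, and adult cuticle is added to for some days afterwards. In the head, a special cuticle forms the corneal lens of each facet, and Cpr72Ec and Cpr66D encode lens proteins, together with retinin and Crys, which do not belong to the families.

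Several measures of the arrays themselves differed between diets. The signal of the 5′ minus the 3′ probe sets of control transcripts, which is lower where RNA is degraded or poorly copied, was highest with PTZ plus levetiracetam, −4.14 ± 0.23, and with PTZ plus oxaprozin, −4.73 ± 0.17. It lay between −6.21 and −5.50 in the other 12 fed groups and at −6.42 ± 0.22 on normal food (log2, SD, n = 4, 2 for moxifloxacin). The 7 measured photoreceptor markers averaged 12.01 with PTZ plus levetiracetam, 11.96 with quinapril and 11.95 with PTZ plus oxaprozin, their 3 highest diets, against 11.33 on normal food. The 9 measured antenna markers averaged 4.59 to 5.99 in the diets with PTZ and 5.25 to 6.86 in those without it, and Orco, the olfactory co-receptor gene, had group means of at most 3.16. The 17 measured markers of the male reproductive tract, a tissue outside the head, averaged 5.70 with levetiracetam, 6.58 with moxifloxacin, 3.26 to 5.03 in the other fed groups and 7.08 on normal food. Head fat body markers averaged 7.70 on normal food, their lowest diet, and 8.02 to 8.51 elsewhere. Oenocyte and hydrocarbon markers averaged 6.49 on normal food, their highest diet, and 5.22 to 6.28 elsewhere. Muscle markers ran from 7.39 with PTZ plus olmesartan to 8.27 with gemfibrozil. Neuron markers ran from 8.30 with PTZ plus mannitol to 9.45 with glucosamine. A hybridisation control stood at an upper level on 20 arrays, which held all arrays of mannitol, moxifloxacin, gemfibrozil, PTZ plus glucosamine and PTZ plus mannitol. The rest were 1 array each of olmesartan and quinapril, the only diets in which this level varied. Used as a covariate beside a mean per diet, the level is therefore fitted from those diets alone. No label says whether arrays of 1 diet come from different vials, so p-values measure the spread between arrays, which may be technical, and 4 or 2 arrays per group limit the precision. In whole heads, fewer cells of a type and less RNA per cell cannot be told apart.

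Over the 15 diets, 58 of the 90 cuticle protein genes differed somewhere (limma F test, adjusted p under 0.05), beside 77.8% of all probe sets tested. The widest differences between diets lay in a few genes. In 10 of the 90 the group means spanned more than 1 log2 unit, and the median span was 0.42, beside a median SD within groups of 0.14. Cpr72Ec spanned 2.61, Cpr67B 2.47, Cpr11B 2.13, Cpr60D 1.86, TwdlG 1.46 and Cpr49Ae 1.02 log2 units. Normal food was the lowest of the 15 diets for 16 of the 90 genes and the highest for 1, Cpr100A. Moxifloxacin, with 2 arrays, was lowest for 13 and highest for 12. PTZ plus levetiracetam was lowest for 10 and highest for 9, and olmesartan lowest for 1 and highest for 12. No such counts were made for all probe sets.

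**Figure D1:**
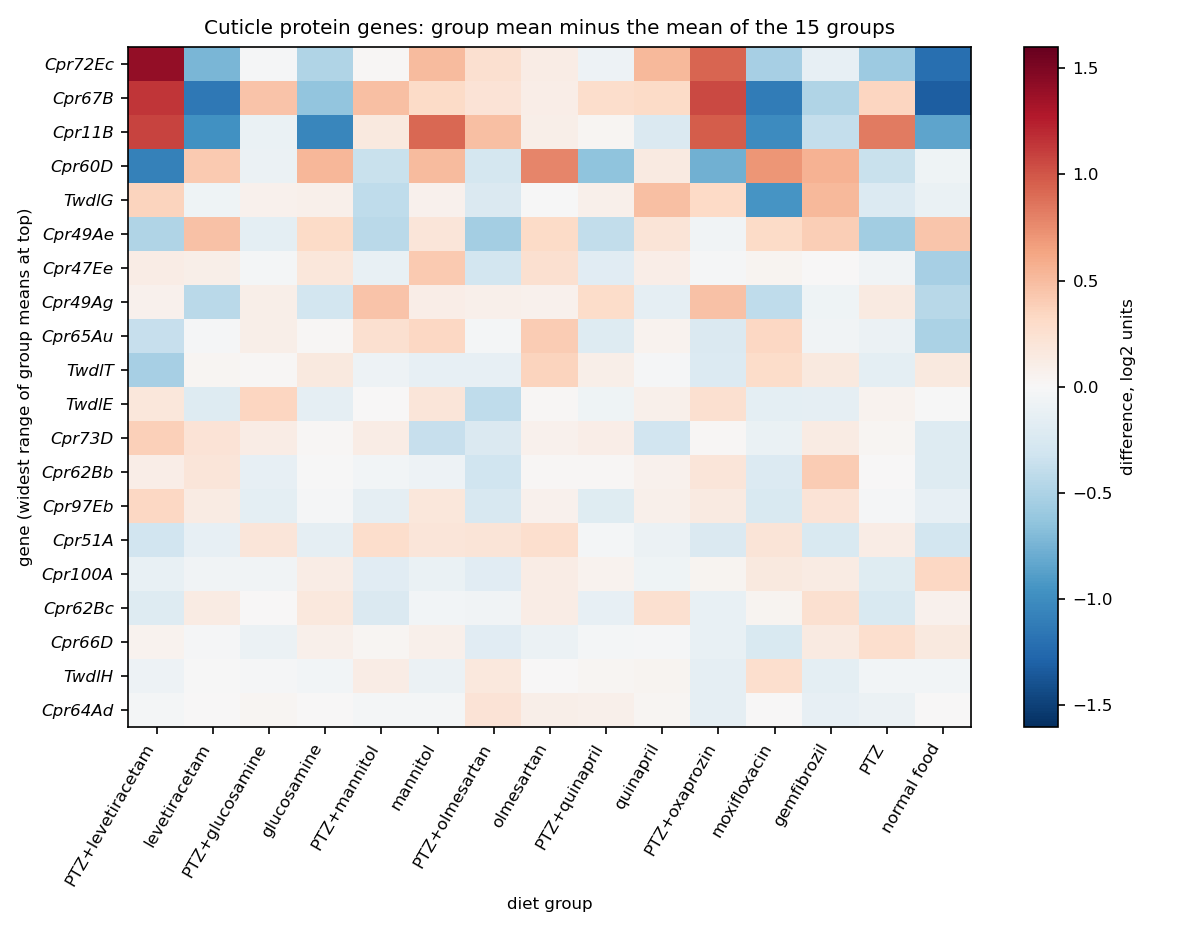
Each cell is a gene's mean in a diet group minus its mean over the 15 groups, in log2 units, for the 20 genes with a mean over 5 in any group. Cpr72Ec, Cpr67B and Cpr11B are raised most with PTZ plus levetiracetam and PTZ plus oxaprozin, where Cpr60D is lowest.

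At the level of 5 that chose the genes described in detail, Cpr66D, with a highest group mean of 5.05, and Cpr64Ad, with 5.09, lay just inside, and Cpr49Af, with 4.93, and Cpr78Ca, with 4.88, lay just outside. Of the 70 genes below it, 30 never exceeded 3 in any group, and RMA compresses differences between dim values. Of these 70, Cpr67Fa2, Cpr76Bc, Cpr67Fb and Cpr78Ca spanned more than 1 log2 unit between diets. They are named after their values were seen. Cpr67Fa2 was highest with moxifloxacin, 4.46, and lowest with PTZ plus mannitol, 3.10, and its neighbour Cpr67Fb was highest with PTZ plus mannitol, 4.77, and lowest with levetiracetam, 3.66.

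Cpr49Ae separated the diets with PTZ from those without it on every array, a separation that was not counted for all probe sets. The 28 arrays with PTZ read 8.84 to 9.54, with a median of 9.08, and the 30 arrays without it read 9.66 to 10.00, with a median of 9.83. On PTZ alone the arrays read 8.95, 8.97, 8.94 and 8.93, against 9.95, 9.94, 9.98 and 9.95 on normal food. The groups did not overlap, and Cpr49Ae fell with PTZ by 1.01 ± 0.038 log2 units (SE, adjusted p = 3.78e-28). With and without PTZ on 5 drug backgrounds, the differences were −0.94 with levetiracetam, −0.46 with glucosamine, −0.63 with mannitol, −0.85 with olmesartan and −0.60 with quinapril, each called. Over the 6 pairs of group means, the mean difference was −0.75 ± 0.084 (SE, limma, adjusted p = 0.00873), negative in 6 of 6 pairs. The highest value with PTZ came from the combination with oxaprozin, at 9.45 ± 0.079 (SD, n = 4), which was 0.50 ± 0.038 above PTZ alone (SE, adjusted p = 6.75e-16).

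Cpr60D was likewise lower with PTZ in each pair of diets. With PTZ plus levetiracetam its arrays read 4.86, 4.99, 4.76 and 5.14, against 6.44, 6.53, 6.43 and 6.38 with levetiracetam. This was the widest gap of the 6, −1.51 ± 0.066 (SE, adjusted p = 1.42e-25), with no overlap. The narrowest was without a drug, where PTZ gave 5.58, 5.68, 5.72 and 5.69 and normal food 6.12, 5.80, 5.93 and 5.98, a difference of −0.29 ± 0.066 (SE, adjusted p = 0.00018). Against the mean of the 7 PTZ-free compounds in place of normal food, PTZ alone gave −0.87 for Cpr60D. With glucosamine, mannitol, olmesartan and quinapril the differences were −0.63, −0.86, −1.06 and −0.79, each called. The mean over the 6 pairs was −0.86 ± 0.14 (SE, adjusted p = 0.0275), negative in 6 of 6. Over all diets, the 28 arrays with PTZ read 4.76 to 5.98 and the 30 without it 5.80 to 6.86, and among the PTZ-free diets only normal food had arrays in the overlap.

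Cpr49Ag moved the other way from Cpr49Ae, although the RefSeq table places Cpr49Ae, Cpr49Af and Cpr49Ag next to one another. On PTZ the Cpr49Ag arrays read 6.74, 6.88, 6.90 and 6.84, against 6.24, 6.28, 6.28 and 6.22 on normal food, without overlap. The gene rose by 0.58 ± 0.052 log2 units (SE, adjusted p = 5.39e-14), and by 0.31 against the mean of the 7 PTZ-free compounds (adjusted p = 5.8e-09). The PTZ difference was 0.49 with levetiracetam, 0.39 with glucosamine, 0.36 with mannitol and 0.44 with quinapril, each called, and 0.02 with olmesartan, which was not (adjusted p = 0.823). Over the 6 pairs the mean was 0.38 ± 0.079 (SE, adjusted p = 0.0488), positive in 6 of 6 pairs. Cpr49Af, below the level of 5 in all diets, had a mean difference of 0.28 ± 0.099 (SE), positive in 5 of 6 pairs, which did not pass (adjusted p = 0.184). The other 5 measured genes of the Cpr49A group, Cpr49Aa, Cpr49Ab, Cpr49Ac, Cpr49Ad and Cpr49Ah, had mean differences between −0.06 and 0.09 over the 6 pairs, none called. Their highest group means were only 2.54 to 3.02, where RMA compresses differences. Of these, PTZ against normal food called Cpr49Ac lower (−0.36, limma adjusted p = 7.71e-05) and Cpr49Ab higher (0.27, adjusted p = 0.0401).

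Over the 6 pairs, limma called 1 of the 90 genes higher with PTZ, Cpr49Ag, beside 1.18% of all probe sets, and 2 lower, Cpr49Ae and Cpr60D, beside 1.77%, so these shares were close to those of the array as a whole. The median difference of the 90 genes was 0.03, and that of all probe sets was 0.00. Under a prior spread that follows intensity with robust weights, none of the 3 passed (adjusted p = 0.172 for Cpr49Ae, 0.218 for Cpr49Ag and 0.176 for Cpr60D), and limma then called 21 of all probe sets. Without the PTZ and normal food pair, Cpr49Ag gave 0.34 (adjusted p = 0.133), while Cpr49Ae and Cpr60D stayed called. In the same test, 4 of the 9 antenna markers (median −0.72) and 3 of the 9 neuron markers (median −0.46) were lower with PTZ, and their part in the falls of Cpr49Ae and Cpr60D was not tested. Cpr62Bc and Cpr76Bc, named after their values were seen, were negative in 6 of 6 pairs, at −0.27 ± 0.056 and −0.56 ± 0.12 (SE, adjusted p = 0.053 and 0.0533). Other genes that were not called, TwdlL and Cpr5C among them, also kept 1 sign in 6 of 6 pairs.

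**Figure D2:**
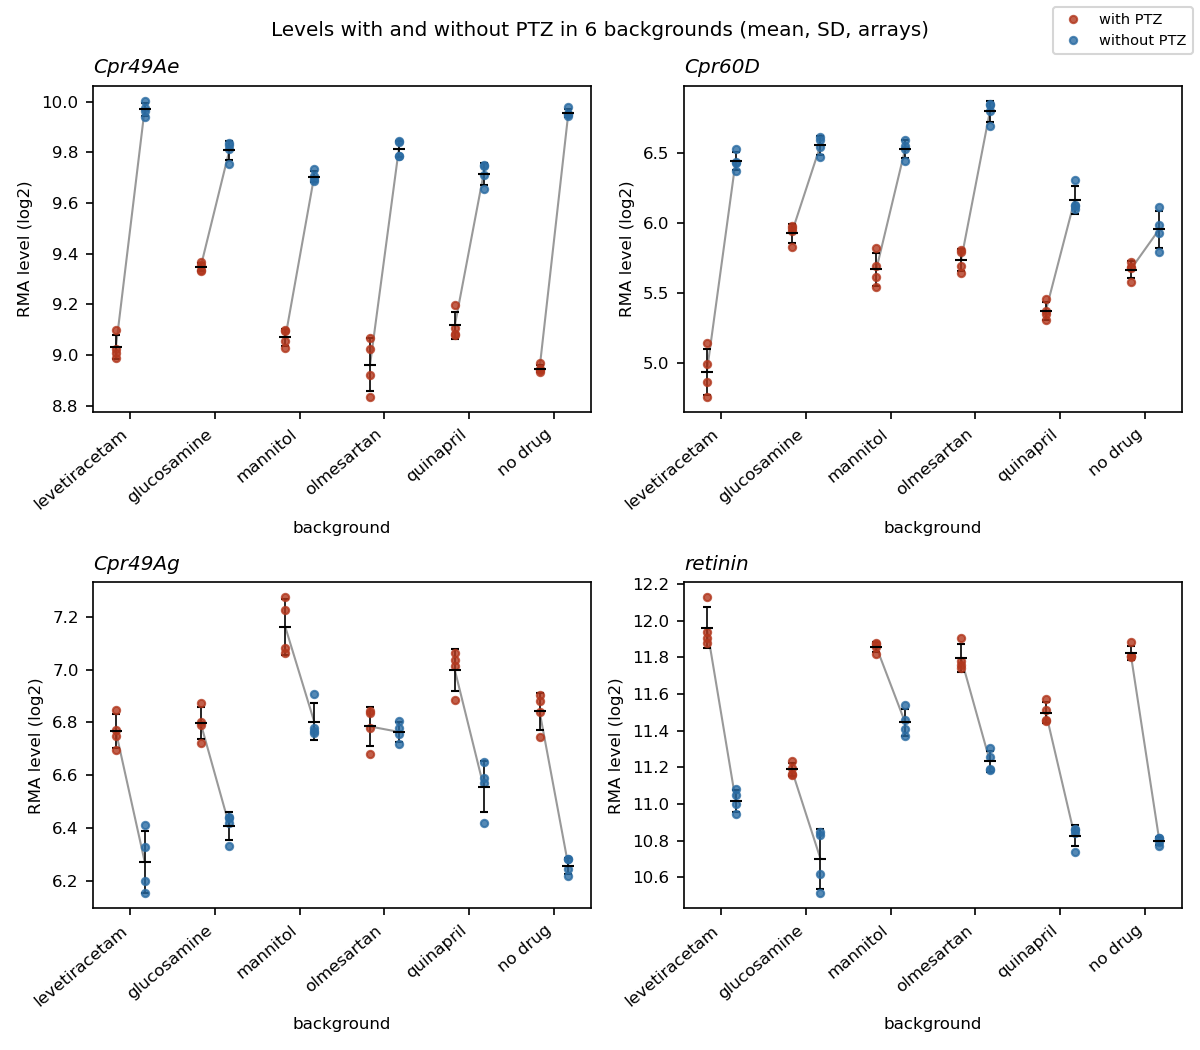
Log2 level on each array (points), with group mean and SD, with PTZ (left of each pair) and without PTZ (right), in flies given 5 drugs or no drug. Cpr49Ae and Cpr60D lie lower with PTZ in 6 of 6 pairs, and Cpr49Ag and retinin higher in 6 of 6.

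Cpr72Ec, the lens protein gene, was highest with PTZ plus levetiracetam. Its arrays read 9.19, 9.17, 9.19 and 9.29 there and 8.77, 8.61, 8.70 and 8.84 with PTZ plus oxaprozin, against 7.16, 7.25, 7.22 and 7.21 with PTZ. Neither combination overlapped PTZ, and the rises were 2.00 ± 0.059 and 1.52 ± 0.059 log2 units (SE, adjusted p = 2.57e-31 and 2.01e-26), or 3.99-fold and 2.86-fold. The 4 other combinations also exceeded PTZ alone, by 0.56 with glucosamine, 0.60 with mannitol, 0.84 with olmesartan and 0.51 with quinapril. Set against the mean of the other PTZ combinations instead, those 4 turned to −0.53, −0.48, −0.20 and −0.59, while PTZ plus levetiracetam stayed higher, by 1.19, and PTZ plus oxaprozin by 0.61.

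On diets without PTZ, Cpr72Ec exceeded normal food with all 7 compounds, by 0.47 with levetiracetam to 1.72 with quinapril. Its quinapril arrays read 8.42, 8.35, 8.24 and 8.26, against 6.48, 6.60, 6.56 and 6.75 on normal food, without overlap. PTZ alone exceeded normal food by 0.61 ± 0.059 (SE, adjusted p = 8.54e-13), but lay 0.48 log2 units below the mean of the 7 PTZ-free compounds (adjusted p = 8.14e-13), so its direction followed the choice of comparison diet. The PTZ difference ran from −0.59 with quinapril and −0.49 with mannitol, both lower, to 2.14 with levetiracetam, and its mean over the 6 pairs was 0.38 ± 0.33 (SE, adjusted p = 0.613).

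Cpr67B read 9.17, 9.21, 9.13 and 9.33 with PTZ plus levetiracetam and 8.38, 8.45, 8.35 and 8.43 with PTZ, against 6.69, 6.66, 6.82 and 6.80 on normal food. The 3 diets did not overlap. PTZ alone was 0.72 above the mean of the 7 PTZ-free compounds (adjusted p = 6.67e-20). PTZ raised it by 1.66 ± 0.055 log2 units over normal food (SE, adjusted p = 3.39e-30), and by 2.29 ± 0.055 in levetiracetam-fed flies (adjusted p = 5.04e-36). In mannitol, olmesartan and quinapril flies, which were already at 8.37, 8.18 and 8.37 without PTZ, the PTZ difference was 0.17, 0.11 and −0.03, of which the first was called. Low Cpr67B marked levetiracetam, 6.92, moxifloxacin, 6.94, and normal food, 6.75, the 3 diets in which the male reproductive tract markers were highest. The part of those markers in the result was not tested.

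Cpr11B had a similar range. PTZ arrays read 6.07, 6.12, 6.06 and 6.16, against 4.38, 4.37, 4.44 and 4.55 on normal food, without overlap, a rise of 1.67 ± 0.083 (SE, adjusted p = 3.69e-23). Mannitol alone gave 6.18, 6.15, 6.28 and 6.15, 1.76 ± 0.083 above normal food (SE, adjusted p = 4.14e-24), whereas glucosamine, at 4.23 ± 0.12 (SD, n = 4), overlapped normal food. With PTZ added, Cpr11B was lower in mannitol flies by 0.76 and higher in levetiracetam flies by 2.05, and 5 of 6 pairs were positive (mean 0.76 ± 0.34, SE, adjusted p = 0.291). The 2 PTZ differences, with mannitol and with no drug, differed from each other by −2.43 ± 0.12 (SE, adjusted p = 1.99e-23).

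**Figure D3:**
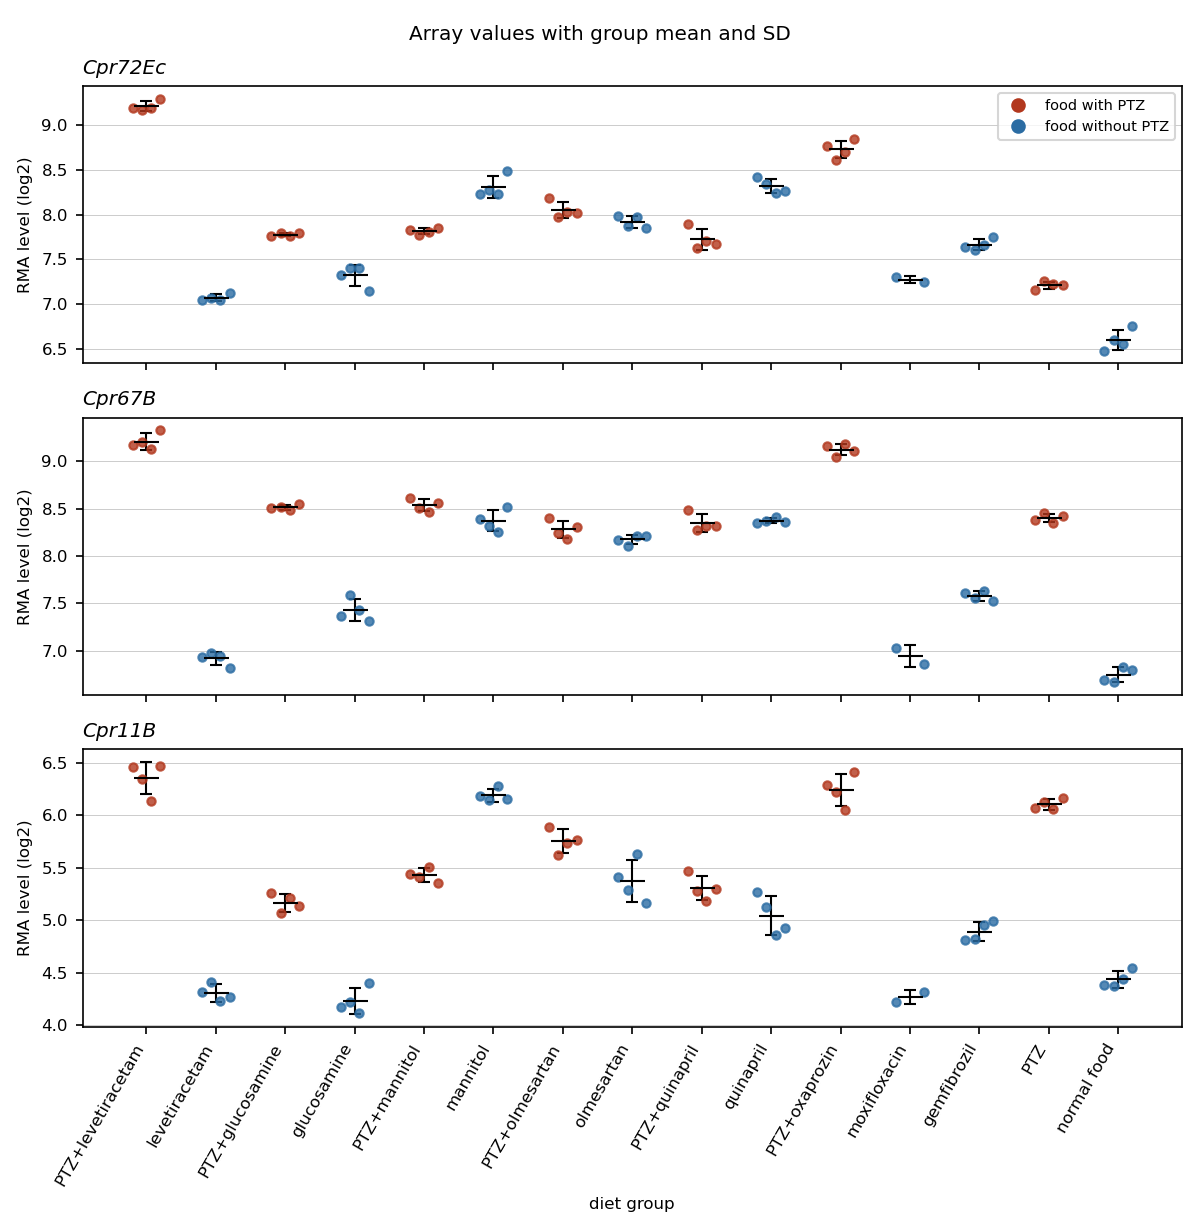
Log2 level of Cpr72Ec, Cpr67B and Cpr11B on each array (points), with group mean and SD, over the 15 diets. In all 3 genes the highest mean is that of PTZ plus levetiracetam (9.21, 9.21 and 6.35), followed by that of PTZ plus oxaprozin (8.73, 9.13 and 6.24).

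The diets with the highest Cpr72Ec, Cpr67B and Cpr11B were those with the highest 5′ minus 3′ signal. With that signal as a covariate, the difference of PTZ plus levetiracetam from PTZ was 1.49 for Cpr72Ec (adjusted p = 2.68e-12) and 0.53 for Cpr67B (adjusted p = 0.00322). For Cpr11B it was −0.39 (adjusted p = 0.161), against 0.25 without the covariate (adjusted p = 0.0124). Beside a mean per diet, the covariate is fitted on the spread within diets, an SD of 0.23 with PTZ plus levetiracetam and 0.09 with PTZ. The means of these diets were −4.14 and −5.67, so the adjusted values extrapolate and cannot separate the signal from diet. The rises of Cpr67B and Cpr11B with PTZ alone over normal food were 1.52 and 1.35 with the covariate, and the falls of Cpr49Ae and Cpr60D were −1.03 and −0.49. Photoreceptor markers averaged 12.01 with PTZ plus levetiracetam and 11.95 with PTZ plus oxaprozin, with quinapril between them at 11.96, and their part in these differences was not tested.

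Of the 4 corneal lens genes, 3 had a probe set of their own: retinin, Cpr72Ec and Cpr66D. Retinin, a lens protein outside the CPR and Tweedle families, read 11.81, 11.88, 11.81 and 11.80 on PTZ, against 10.77, 10.82, 10.79 and 10.81 on normal food, without overlap. It rose by 1.03 ± 0.055 (SE, adjusted p = 9.66e-22) and by 0.68 ± 0.094 over the 6 pairs (SE, adjusted p = 0.0156), positive in 6 of 6. PTZ plus oxaprozin, which raised Cpr72Ec 2.86-fold over PTZ, differed for retinin by −0.08 (adjusted p = 0.267). In quinapril flies, retinin stood at 10.83 ± 0.058, against 10.80 ± 0.020 on normal food (SD, n = 4 each), while Cpr72Ec stood at 8.32 ± 0.080, against 6.60 ± 0.11. Cpr66D stayed between 4.54 with moxifloxacin and 5.05 with PTZ, close to the dim end of the scale, and PTZ differed from normal food by 0.10 (adjusted p = 0.353). It was lower than PTZ in all 6 combinations, by 0.21 with levetiracetam to 0.44 with olmesartan. These 6 comparisons share the 4 PTZ arrays, the highest diet for the gene, and against the mean of the other combinations the difference was 0.10 with mannitol and 0.03 with quinapril. The call was lost with mannitol on leaving out PTZ replicate 1, 3 or 4 or PTZ plus mannitol replicate 3 (adjusted p = 0.0596 to 0.128), and with quinapril on leaving out PTZ plus quinapril replicate 4 (adjusted p = 0.0559).

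**Figure D4:**
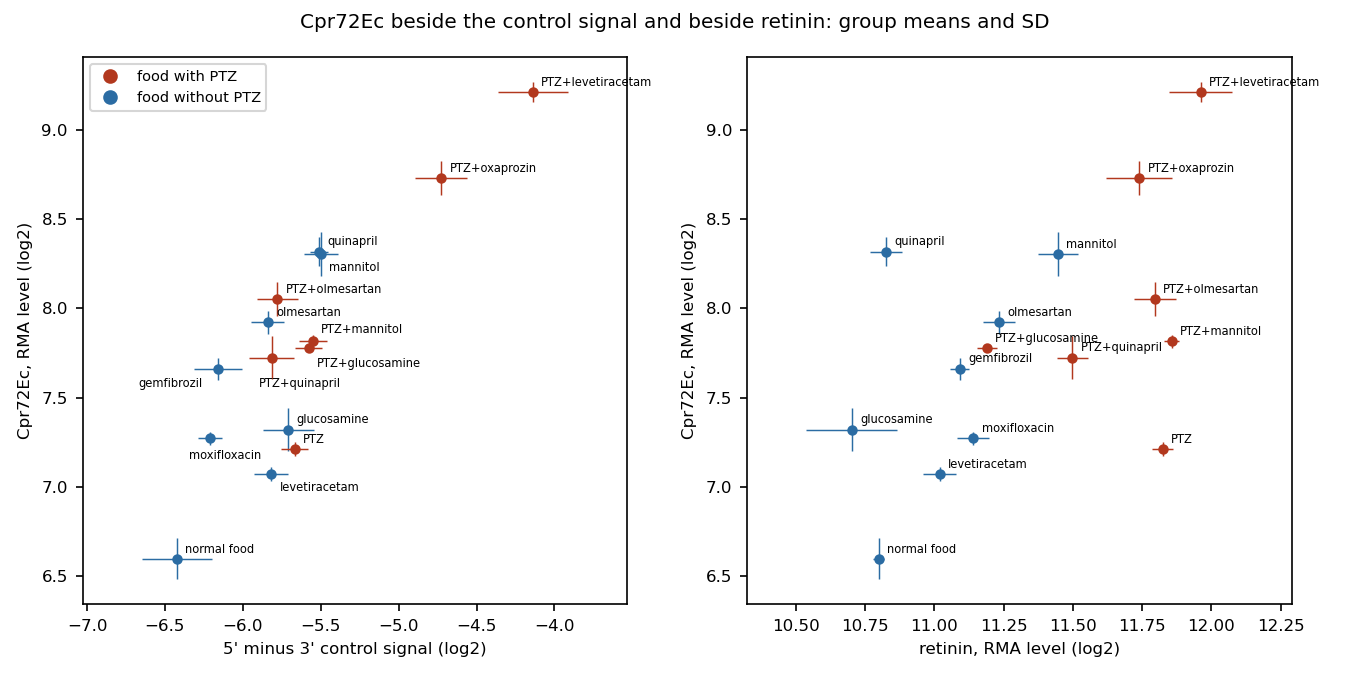
Group mean and SD of Cpr72Ec (vertical, log2) against the 5′ minus 3′ control signal (left, log2) and against retinin (right, log2), 1 point per diet. PTZ plus levetiracetam and PTZ plus oxaprozin are high on both axes at left, while quinapril at right has high Cpr72Ec (8.32) with low retinin (10.83) and PTZ has low Cpr72Ec (7.21) with high retinin (11.82).

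Cpr65Au was highest with olmesartan, at 12.01 ± 0.011 (SD, n = 4), and lowest on normal food, with arrays at 11.11, 11.10, 11.06 and 11.15. The groups did not overlap, a rise of 0.90 ± 0.029 (SE, adjusted p = 1.15e-30). It rose by 0.41 ± 0.029 with PTZ over normal food (SE, adjusted p = 5.64e-17), but PTZ alone lay below the mean of the 7 PTZ-free compounds, at −0.25 (adjusted p = 2.6e-13). PTZ lowered it in levetiracetam flies by 0.34 and in olmesartan flies by 0.43, and the mean over the 6 pairs was −0.11 ± 0.11 (SE, adjusted p = 0.685). Cpr65Au sits among larval cuticle protein genes of the 65A cluster in the RefSeq table, between Lcp65Ag3 and Lcp65Ag2.

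Cpr47Ee read 5.71, 5.80, 5.83 and 5.74 with mannitol, its highest diet, against 4.77, 4.73, 4.78 and 4.99 on normal food, its lowest, without overlap. It rose by 0.63 with levetiracetam and by 0.72 with glucosamine over normal food. Against the mean of the 7 PTZ-free compounds, PTZ alone gave −0.22 for Cpr47Ee (adjusted p = 0.000125). With PTZ it was higher on no drug, by 0.47, and lower in mannitol flies by 0.54 and in olmesartan flies by 0.55. Cpr100A read 6.78, 6.80, 6.97 and 6.89 with PTZ, against 7.40, 7.41, 7.40 and 7.35 on normal food, its highest diet. It fell by 0.53 ± 0.054 with PTZ (SE, adjusted p = 3.83e-12) and by 0.18 with moxifloxacin to 0.45 with mannitol among the 7 other compounds. With the hybridisation control level as a covariate, its difference with gemfibrozil was −0.02 (adjusted p = 0.907). That level was upper on all gemfibrozil arrays and on none of normal food, so level and diet cannot be told apart here.

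TwdlG, the Tweedle gene with the widest span, read 5.48 and 5.75 with moxifloxacin, against 6.34, 6.52, 6.47 and 6.49 on normal food, without overlap. It fell by 0.84 ± 0.085 (SE, adjusted p = 8.72e-12), with only 2 moxifloxacin arrays behind the value. It was highest with gemfibrozil, 7.08 ± 0.10, and quinapril, 7.04 ± 0.087 (SD, n = 4 each). PTZ alone differed from normal food by −0.12 (adjusted p = 0.157). TwdlT was lowest with PTZ plus levetiracetam, where arrays read 4.74, 4.85, 4.88 and 4.79, against 5.22, 5.24, 5.48 and 5.55 with levetiracetam, without overlap. Its highest diet was olmesartan, at 5.70 ± 0.067. TwdlE read 5.49, 5.37, 5.38 and 5.45 with PTZ plus glucosamine, against 4.91, 4.84, 4.89 and 5.09 with glucosamine, without overlap. It ran between 4.68 ± 0.10 with PTZ plus olmesartan and 5.43 ± 0.057 with PTZ plus glucosamine (SD, n = 4 each). TwdlH stayed between 4.76 with gemfibrozil and 5.18 with moxifloxacin, and differed between the 15 diets by limma's F test (adjusted p = 0.00479).

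The remaining CPR genes above 5 had spans of less than 1 log2 unit. Cpr73D read 6.02, 5.97, 5.98 and 6.14 with PTZ plus mannitol, against 5.53, 5.43, 5.51 and 5.70 with mannitol, its lowest diet, without overlap. It was highest with PTZ plus levetiracetam, at 6.29 ± 0.060 (SD, n = 4). Cpr62Bb ranged from 5.21 with PTZ plus olmesartan to 5.93 with gemfibrozil. Cpr51A ranged from 7.65 with PTZ plus levetiracetam to 8.23 with PTZ plus mannitol, and Cpr97Eb from 4.69 with PTZ plus olmesartan to 5.28 with PTZ plus levetiracetam. Cpr62Bc ran from 4.89 with PTZ to 5.40 with quinapril, and Cpr64Ad from 4.73 with PTZ plus oxaprozin to 5.09 with PTZ plus olmesartan. For Cpr51A, Cpr73D, Cpr62Bb, Cpr62Bc, Cpr97Eb, TwdlH, Cpr64Ad and Cpr66D, each diet's arrays overlapped those of the next diet in order of level in 14 of 14 steps. The count was 7 of 14 for Cpr72Ec and for Cpr65Au, and 10 of 14 for Cpr67B. Neighbouring diets can overlap while distant ones differ, and overlap was not counted for all probe sets. By limma's F test each of the genes with 14 of 14 listed here differed between diets. Adjusted p-values ran from 6.34e-20 for Cpr51A and 6.33e-14 for Cpr73D to 0.0175 for Cpr64Ad.

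Counts of called genes were read against the whole array in each comparison. With PTZ against normal food, 18 of the 90 genes were higher, beside 23.9% of all probe sets, and 9 were lower, beside 26.4%. The share of lower calls was under that of the array in each of the 8 comparisons with normal food. These share the normal food arrays, and the probe sets compared were not matched for level. Of the 90 genes, 29 had a mean over all arrays above the median of all probe sets. Levetiracetam had 18 higher and 5 lower (21% and 17.3% of all probe sets), glucosamine 20 and 5 (22.4% and 18.9%), mannitol 19 and 5 (22.9% and 25.4%) and olmesartan 27 and 4 (25.7% and 24.4%). Moxifloxacin had 12 higher and 5 lower (17.6% and 19.9%), gemfibrozil 16 and 2 (25.3% and 20.8%) and quinapril 16 and 6 (25.1% and 24%). The 2 lower with gemfibrozil were Cpr100A and Cpr67Fb. The median difference of the 90 genes was between 0.04 and 0.10 log2 units, and that of all probe sets between −0.02 and 0.02.

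By size, the 2 leading rises over normal food among genes above 5 were Cpr11B (1.67) and Cpr67B (1.66) with PTZ, Cpr47Ee (0.63) and Cpr60D (0.49) with levetiracetam, and Cpr72Ec (0.72) and Cpr47Ee (0.72) with glucosamine. They were Cpr11B (1.76) and Cpr72Ec (1.71) with mannitol, Cpr67B (1.43) and Cpr72Ec (1.32) with olmesartan, and Cpr65Au (0.83) and Cpr60D (0.77) with moxifloxacin. They were Cpr72Ec (1.06) and Cpr67B (0.83) with gemfibrozil and Cpr72Ec (1.72) and Cpr67B (1.63) with quinapril. These comparisons share the 4 normal food arrays. Set against the mean of the other PTZ-free compounds, the sign turned for Cpr47Ee and Cpr60D with levetiracetam, Cpr72Ec with glucosamine, Cpr72Ec and Cpr67B with gemfibrozil, and Cpr100A with glucosamine, olmesartan and gemfibrozil. The leading falls were Cpr49Ae (−1.01) and Cpr100A (−0.53) with PTZ, TwdlG (−0.84) and Cpr66D (−0.40) with moxifloxacin, and Cpr100A with the other 6 compounds, joined by TwdlE (−0.21) with levetiracetam, Cpr11B (−0.21) with glucosamine, TwdlT (−0.28) with mannitol, Cpr66D (−0.25) with olmesartan and Cpr49Ae (−0.24) with quinapril. Leaving out 1 array ended the call of TwdlE with levetiracetam (normal food replicate 2), of Cpr66D with olmesartan (normal food replicate 1) and with moxifloxacin (moxifloxacin replicate 2), and of Cpr11B with glucosamine (normal food replicate 3 or 4, or glucosamine replicate 1, 2 or 3), at adjusted p-values of 0.0525 to 0.135. The call of TwdlT with mannitol was lost with either control signal as a covariate (adjusted p = 0.0836 and 0.159). The hybridisation level was upper on all mannitol arrays and on none of normal food, so that adjustment cannot separate it from diet. Among genes below 5, chosen after their values were seen, Cpr67Fa2 rose by 1.16 ± 0.16 with moxifloxacin (SE, adjusted p = 3.26e-08) and Cpr67Fb fell by 0.66 ± 0.13 with levetiracetam (SE, adjusted p = 3.44e-05).

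Against PTZ alone, levetiracetam added to PTZ gave 10 genes higher and 9 lower (18.4% and 20% of all probe sets), glucosamine 12 and 3 (11.7% and 12.4%) and mannitol 12 and 3 (14.7% and 18.8%). Olmesartan gave 11 and 7 (15.5% and 14.9%), quinapril 9 and 6 (9.82% and 11.6%) and oxaprozin 10 and 4 (17.8% and 17.8%). Cpr72Ec led the rises among genes above 5 in each of the 6, though against the mean of the other combinations its sign turned with glucosamine, mannitol, olmesartan and quinapril. Beside it came Cpr67B with levetiracetam (0.81) and oxaprozin (0.72), Cpr49Ae with glucosamine (0.40), Cpr65Au with mannitol (0.35), Cpr64Ad with olmesartan (0.31) and TwdlG with quinapril (0.30). Cpr11B fell below PTZ with glucosamine (−0.94 ± 0.083), mannitol (−0.67 ± 0.083), olmesartan (−0.35 ± 0.083) and quinapril (−0.80 ± 0.083), each with an SE, and it was 0.14 above PTZ with oxaprozin, which did not pass. Cpr60D fell below PTZ with levetiracetam (−0.73) and oxaprozin (−0.42). Cpr51A fell with levetiracetam (−0.43) and TwdlE with olmesartan (−0.47). Cpr92F, below 5 in all diets and named after its value was seen, rose by 0.89 ± 0.13 with olmesartan (SE, adjusted p = 2.32e-07).

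**Figure D5:**
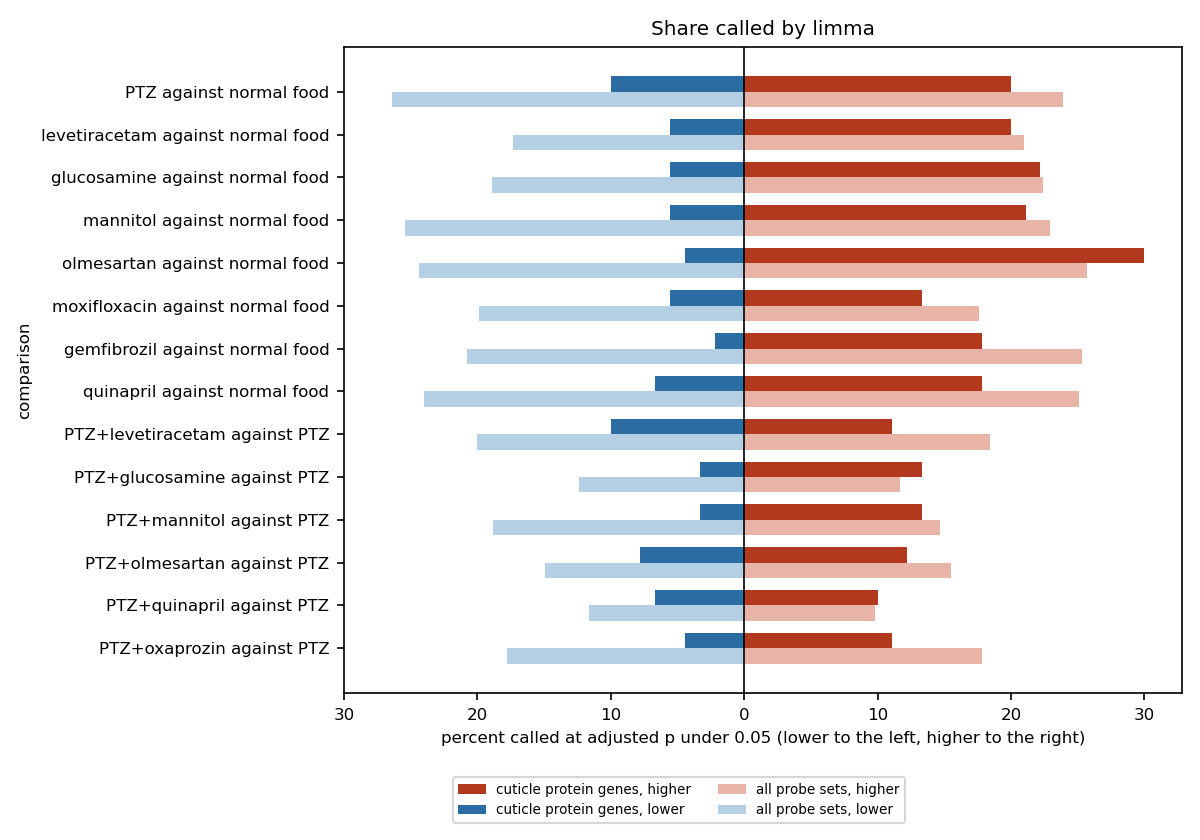
Percent called higher (right of 0) and lower (left of 0) at an adjusted p under 0.05, for the 90 cuticle protein genes and for all 18769 probe sets, in 14 comparisons. Lower calls are fewer among the cuticle protein genes than among all probe sets in each of the 14. The comparisons share the normal food or the PTZ arrays as reference, and the sets were not matched for level.

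The PTZ difference with a drug differed from that without a drug for some of the genes, in shares under those of all probe sets. It was tested as the PTZ difference with a drug minus that without a drug, and the leading genes given are those among the 20 above 5. With levetiracetam, 8 genes had a larger and 10 a smaller signed difference (16.7% and 19% of all probe sets, 35.7% in either direction), led by Cpr72Ec (1.52 ± 0.084) and Cpr60D (−1.22 ± 0.093, SE). With glucosamine the counts were 6 and 14 (17.1% and 19.3%, 36.5% in either), led by Cpr49Ae (0.55) and Cpr11B (−0.73). With mannitol they were 11 and 14 (21.9% and 22.1%, 44% in either), led by Cpr100A (0.47) and Cpr11B (−2.43). With olmesartan they were 6 and 16 (23.1% and 23.5%, 46.5% in either), led by Cpr100A (0.23) and Cpr67B (−1.55). With quinapril they were 7 and 13 (21.3% and 21%, 42.3% in either), led by Cpr100A (0.66) and Cpr67B (−1.68). Among genes below 5, chosen after their values were seen, larger called rises were those of Cpr78Ca with glucosamine (0.61), Cpr67Fb with mannitol (0.63) and Cpr92F with olmesartan (0.65). All 5 tests share the PTZ and the normal food arrays, so a shift of the normal food arrays would enter each of them. Normal food was the lowest diet for Cpr65Au, Cpr67B, Cpr72Ec, Cpr49Ag and Cpr47Ee and the highest for Cpr100A. Such a shift and a dependence on the drug were not separated here.

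Other genes of cuticle formation were taken from lists drawn up for this tissue, and PTZ against normal food is given for each beside the 23.9% and 26.4% of all probe sets called higher and lower. Of 23 measured structural genes outside the families, 3 were higher and 3 lower, with a median difference of −0.01. Retinin was among the higher. Lcp65Ac, a larval cuticle protein gene, rose by 0.46 ± 0.12 (SE, adjusted p = 0.000657), and tyn, a zona pellucida domain gene, fell by 0.52 ± 0.083 (SE, adjusted p = 3.72e-07). Tyn was also lower over the 6 pairs, by 0.57 ± 0.095 (SE, adjusted p = 0.0274). Acp65Aa, an adult cuticle protein gene, differed by −0.07 (adjusted p = 0.584).

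Of 43 measured genes of chitin synthesis, assembly and modification, 14 were higher and 11 lower with PTZ, with a median of 0.08. Of the 4 with the widest spans, 3 encode imaginal disc growth factors, secreted relatives of chitinases. Idgf5 rose by 1.95 ± 0.063, Idgf2 by 1.76 ± 0.047 and Idgf4 by 1.12 ± 0.051 (SE), each lowest on normal food among the 15 diets. None of these 3 passed over the 6 pairs, where the adjusted p was 0.119 for Idgf5, 0.308 for Idgf2 and 0.79 for Idgf4. The gene obst-A, whose chitin-binding product organises the cuticle matrix, fell by 1.37 ± 0.089 (SE, adjusted p = 1.27e-18) and by 1.08 ± 0.15 over the 6 pairs (SE, adjusted p = 0.0173).

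Of 28 genes of tanning and pigmentation, 8 were higher and 5 lower with PTZ, with a median of 0.09, and limma called 0 over the 6 pairs, where 7 had an unadjusted p under 0.05. The share of all probe sets under that unadjusted p was not counted. The ebony gene e, which conjugates beta-alanine to dopamine, rose by 1.11 ± 0.066 and PPO1, a prophenoloxidase gene, by 0.79 ± 0.090, while stw, the straw laccase gene, fell by 0.76 ± 0.069 (SE). For yellow-e the difference was 0.14 (adjusted p = 0.161). Of 23 moulting and cuticle regulators, 3 were higher and 11 lower, with a median of −0.18. The nuclear receptor gene ftz-f1 fell by 0.60 ± 0.039, and grh, which encodes the epidermal factor grainy head, fell by 0.80 ± 0.041 (SE). Over the 6 pairs the same 2 were the only ones called, at −0.70 ± 0.10 for ftz-f1 (SE, adjusted p = 0.0178) and −0.69 ± 0.073 for grh (SE, adjusted p = 0.00703). The ecdysone-responsive genes br and Blimp-1 fell by 0.22 ± 0.060 and 0.25 ± 0.066 with PTZ (SE), and neither was called over the 6 pairs. Grh is also expressed outside the epidermis, and the neuron markers fell as well, with 8 of 9 measured markers lower with PTZ; their part in the result was not tested.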

How the data were processed

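RNA was labelled from 250 ng with a 3′ kit, per the labels' protocols. The values the authors deposited are log2 intensities from RMA, a method their processing notes list together with limma; neither version was given in the sources used here. This method normalizes quantiles, so a change shared by most transcripts is removed, and it compresses dim values. Array medians ran from 3.7 to 3.87. The 183 control probe sets were left out, leaving 18769.

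All 58 arrays were fitted together, with a mean per diet, in limma 3.58.1 under R 4.3.3, with Benjamini-Hochberg adjustment within each comparison and calls at an adjusted p under 0.05. Rose, fell and changed refer to called differences. The PTZ difference over 6 pairs was fitted by limma to differences of group means, and so rests on 6 values. Scripts used Python 3.11.15, numpy 2.4.6, pandas 2.3.3 and matplotlib 3.10.9. The fit was tested on simulated data. Alternatives changed the prior, normalization, dim-probe filter, arrays fitted, covariates, comparison diet, probe set choice and each array in turn.

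Genes were named by rule: all those with a group mean over 5, array values for the 12 with the widest span, the 2 leading called rises and falls per comparison, the leading difference each way of the PTZ effects, the lens genes, and up to 4 genes of each other list by span. The members and lists were chosen with earlier results of these data known. Replicate numbers did not pair arrays: correlations of same-numbered deviations ran from −0.109 to 0.076. No genome build is named for the files, and no coordinates are given.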

Additional observations from a re-analysis of the deposited data

Results flagged for a closer look

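Among the 12 genes with array values, 168 groups of 4 arrays were examined for an array far from the other 3, and 6 were found, fewer than the 1 in 20 that chance gives. Cpr49Ag in mannitol replicate 3 was 6.909, against 6.76 to 6.779 in the other 3. TwdlG in PTZ plus levetiracetam replicate 3 was 6.737, against 6.962 to 6.977, and in PTZ plus oxaprozin replicate 2 it was 6.663, against 6.924 to 6.953. Cpr60D in quinapril replicate 1 was 6.31, against 6.1 to 6.128. Cpr47Ee in PTZ plus glucosamine replicate 4 was 5.231, against 5.332 to 5.347. TwdlE in PTZ plus oxaprozin replicate 2 was 5.184, against 5.368 to 5.404.

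The PTZ difference with a drug was tested against that without a drug in the same fit, and the leading genes are those among the 20 above a level of 5. With levetiracetam 18 of the 90 genes differed, beside 35.7% of all probe sets, led by Cpr72Ec (1.523) and Cpr60D (−1.216). With glucosamine 20 differed, beside 36.5%, led by Cpr49Ae (0.547) and Cpr11B (−0.729). With mannitol 25 differed, beside 44%, led by Cpr100A (0.468) and Cpr11B (−2.429). With olmesartan 22 differed, beside 46.5%, led by Cpr100A (0.231) and Cpr67B (−1.55). With quinapril 20 differed, beside 42.3%, led by Cpr100A (0.658) and Cpr67B (−1.683). In mannitol flies PTZ lowered Cpr72Ec and Cpr11B, whereas without a drug PTZ raised both over normal food. For Cpr72Ec, PTZ alone lay below the mean of the 7 PTZ-free compounds.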

How the results depend on the processing

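Another comparison diet changed the most: against the mean of the other diets of its kind, 14 of 55 values for the leading genes of the comparisons changed sign. These were Cpr47Ee (−0.07) and Cpr60D (−0.114) with levetiracetam, Cpr72Ec (−0.436) and Cpr100A (0.093) with glucosamine, Cpr100A with olmesartan (0.085), and Cpr72Ec (−0.039), Cpr67B (−0.123) and Cpr100A (0.11) with gemfibrozil. With PTZ they were Cpr72Ec plus glucosamine (−0.529), mannitol (−0.484), olmesartan (−0.2) and quinapril (−0.593), and Cpr66D plus mannitol (0.103) and quinapril (0.03). Over all 14 comparisons of the 12 genes with array values, 41 of 168 changed sign, and for PTZ alone these were Cpr72Ec (−0.483), Cpr65Au (−0.248) and Cpr47Ee (−0.221). Counts of called genes under it were 19 with olmesartan, 32 with PTZ plus levetiracetam and 27 with PTZ plus mannitol, where the fits had given 31, 19 and 15. An intensity trend with a robust prior left 0 genes over the 6 pairs in limma, with 10 at an unadjusted p under 0.05, where the fit had called 3, with 11 under it. Unadjusted p-values were not counted for all probe sets. Without the dimmest 40% of probe sets, levetiracetam had 15 and its PTZ difference 11. Fitting only the diets compared gave 15 with glucosamine and 7 with PTZ plus quinapril. The 5′ minus 3′ signal as covariate gave 9 with PTZ plus levetiracetam, 9 for the levetiracetam difference and 13 for the quinapril difference. The control level as covariate gave 10 with moxifloxacin and 9 with PTZ plus mannitol. It was upper on all arrays of these diets and on none of their references, so these counts cannot separate it from diet. Leaving out 1 array gave 11 to 18 calls with moxifloxacin, the 11 without its replicate 2, and kept all other counts within 1.5 times. It ended 13 calls, of Cpr66D, Cpr11B or TwdlE, at adjusted p-values of 0.0525 to 0.135, and the other alternatives ended 20 calls of named genes, 10 of them of Cpr66D. With the replicate number as a block, PTZ against normal food still called 27 genes, and no count moved by more than 1.5 times. The cause of these shifts was not tested. Dim values near the floor of the array limit what can be seen in 70 of the 90 genes.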
